A study of Mus musculus with 3 samples.

Results

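Secondary (specific) and tertiary (gelatinase) granule genes of neutrophils were followed across the cell types and libraries of a mouse cochlea single-cell series. The genes were chosen by name, 9 of the 32285 genes in the table. They were 6 grouped as secondary (Ltf, Camp, Ngp, Lcn2, Cd177 and Chil3) and 3 grouped as tertiary (Mmp8, Mmp9 and Mmp25). The 2 group names are labels used here, and granule content was not measured. Mmp8 in particular is also counted among secondary granule proteins, so the tertiary label is loose for it. All 9 were found by symbol, on chromosome 9 (Ltf, Camp, Ngp and Mmp8), 2 (Lcn2 and Mmp9), 7 (Cd177), 3 (Chil3) and 17 (Mmp25), and all had UMIs (unique molecular identifiers, the count of captured RNA molecules). The cochleae came from C57BL/6J mice in 3 groups of 6 pooled animals each: a control kept without noise, a hidden hearing loss group (HHL) that heard 110 dB for 2 hours, and a noise-induced hearing loss group (NIHL) that heard 115 dB for 4 hours on 3 days. Tissue was taken 6 hours after the last exposure, and each group is 1 droplet library of 3′ gene expression. A barcode suffix separates the libraries within 1 shared table. The suffixes could not be tied to the 3 groups, so the libraries are called 1, 2 and 3 and were not compared as control, HHL and NIHL. Because a group is 1 library, differences were not tested against replicate spread, and each interval given is a 95% interval that covers counting error alone.

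Neutrophils pack their granules in an order set by when each protein is made during maturation in the bone marrow. Primary granules are filled in promyelocytes, secondary granules in myelocytes and metamyelocytes, and tertiary granules in band cells. The transcription factor C/EBP epsilon is needed for secondary granule genes. Lactoferrin (Ltf) binds iron, lipocalin-2 (Lcn2) binds bacterial siderophores, and Camp is the precursor of the antimicrobial cathelicidin. Ngp is a related cathelin-like protein, Cd177 a surface protein of neutrophils, and Chil3 (Ym1) a chitinase-like protein that monocytes and macrophages can also make. Mmp8 is the neutrophil collagenase, Mmp9 gelatinase B, and Mmp25 a membrane-anchored matrix metalloproteinase.

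The promoters of 5 genes are shown as examples of the early and late patterns described in the results. They are the 250 bases before the transcription start from RefSeq on GRCm38.p6, a build other than the GRCm39 of the counts, written 5′ to 3′ on the strand of the gene. Capitals mark the letters TTGCNNAA on either strand, the core of the C/EBP binding motif. Of the members, 8 had an entry in the promoter table and 4 of these 8 held the motif (Ltf, Ngp, Lcn2 and Mmp8), against 9.56% of 32851 promoters of the same length. All 4 with the motif are among the 5 shown, while Cd177, Chil3 and Mmp25, which lack it, are not shown. The Ltf window is chr9:111019042-111019291 (plus strand), that of Camp chr9:109849457-109849706 (minus), that of Ngp chr9:110419558-110419807 (plus), that of Lcn2 chr2:32387740-32387989 (minus) and that of Mmp8 chr9:7558179-7558428 (plus).
Ltf: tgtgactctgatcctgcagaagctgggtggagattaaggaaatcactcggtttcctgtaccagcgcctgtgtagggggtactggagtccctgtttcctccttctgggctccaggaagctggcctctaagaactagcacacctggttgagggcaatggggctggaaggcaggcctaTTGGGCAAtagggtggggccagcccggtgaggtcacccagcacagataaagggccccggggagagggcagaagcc
Camp: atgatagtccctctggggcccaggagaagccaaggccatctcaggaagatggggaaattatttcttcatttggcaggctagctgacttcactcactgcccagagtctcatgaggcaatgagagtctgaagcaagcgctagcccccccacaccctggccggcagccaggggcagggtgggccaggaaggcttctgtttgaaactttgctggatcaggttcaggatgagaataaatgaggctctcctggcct
Ngp: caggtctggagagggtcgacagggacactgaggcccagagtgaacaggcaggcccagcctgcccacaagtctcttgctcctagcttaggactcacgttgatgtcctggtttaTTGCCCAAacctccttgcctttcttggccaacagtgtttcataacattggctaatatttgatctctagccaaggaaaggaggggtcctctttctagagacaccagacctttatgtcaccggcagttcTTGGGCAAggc
Lcn2: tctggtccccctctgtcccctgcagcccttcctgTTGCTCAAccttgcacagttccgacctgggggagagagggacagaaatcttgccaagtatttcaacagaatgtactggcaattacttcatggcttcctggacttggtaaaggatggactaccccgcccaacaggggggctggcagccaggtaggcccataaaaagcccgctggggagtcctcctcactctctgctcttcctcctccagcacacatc
Mmp8: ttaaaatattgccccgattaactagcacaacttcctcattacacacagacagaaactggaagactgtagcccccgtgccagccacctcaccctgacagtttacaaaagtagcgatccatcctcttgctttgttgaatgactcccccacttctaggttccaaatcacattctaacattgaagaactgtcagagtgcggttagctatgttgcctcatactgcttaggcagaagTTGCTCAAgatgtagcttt
The match of Ltf began 75 bases before the start, those of Ngp 138 and 11 bases, that of Lcn2 216 bases and that of Mmp8 19 bases before it. The shorter ETS core AGGAAG, searched on both strands, was in 6 of the 8 windows and in 29.5% of all. A match describes letters only, and binding was not measured.

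Of 39092 barcodes, 37188 had at least 500 UMIs, at least 200 genes and at most 20% mitochondrial UMIs: 16883, 9602 and 10703 in libraries 1, 2 and 3. Their median depth was 5464, 6293.5 and 8098 UMIs. Pairs of libraries shared 31 to 53 barcode sequences. A cell entered a cell type gate when at least 3 of that type's 8 marker genes had a UMI and it led the other lineages by at least 2 markers (by at least 1 among promyelocytes, immature and mature neutrophils). None of the 9 members was a gate marker. The gates took in 28075 cells (75.5%), and 9 of the 21 gates had at least 50 cells in each library. In those 9 the median cell carried 5 to 8 of the 8 markers of its own gate. Doublet calls marked 2125 barcodes, 1261 of them outside the gates, and they were kept unless stated.

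The granule genes were most abundant in the immature neutrophil gate, which had the markers Cebpe, Fcnb, Itgb2l, Abca13, Trem3, Serpinb1a, AA467197 and Adpgk. There the 9 genes together made up 10.9%, 11.2% and 11.1% of all UMIs in libraries 1, 2 and 3, from 3993, 688 and 749 cells. The mature neutrophil gate (Cxcr2, Csf3r, Mxd1, Il1r2, Retnlg, Hdc, Trem1, Stfa2l1) followed with 4.17%, 2.53% and 3.45%, from 3932, 2521 and 1713 cells. The ranges of these 2 gates did not overlap each other or those of any other of the 9 gates. Promyelocytes (Elane, Mpo, Prtn3, Ctsg and others) had 0.610%, 0.541% and 0.399%, and monocytes (Ccr2, F13a1, Ly6c2 and others) 0.540%, 0.551% and 0.312%. From promyelocytes down, neighbouring gates overlapped in range: macrophages, B cells, fibroblasts, T or NK cells and erythroid cells had medians of 1350.5, 1329, 1134, 863.6 and 862.1 CPM (UMIs of the genes, scaled to a gate total of 1000000 UMIs). In a single immature neutrophil the median share was 11.9%, 11.2% and 11.5% of its UMIs, and the highest was 38.8%, in library 3. In a single mature neutrophil the median share was 1.89%, 1.05% and 1.505%.

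**Figure D1:**
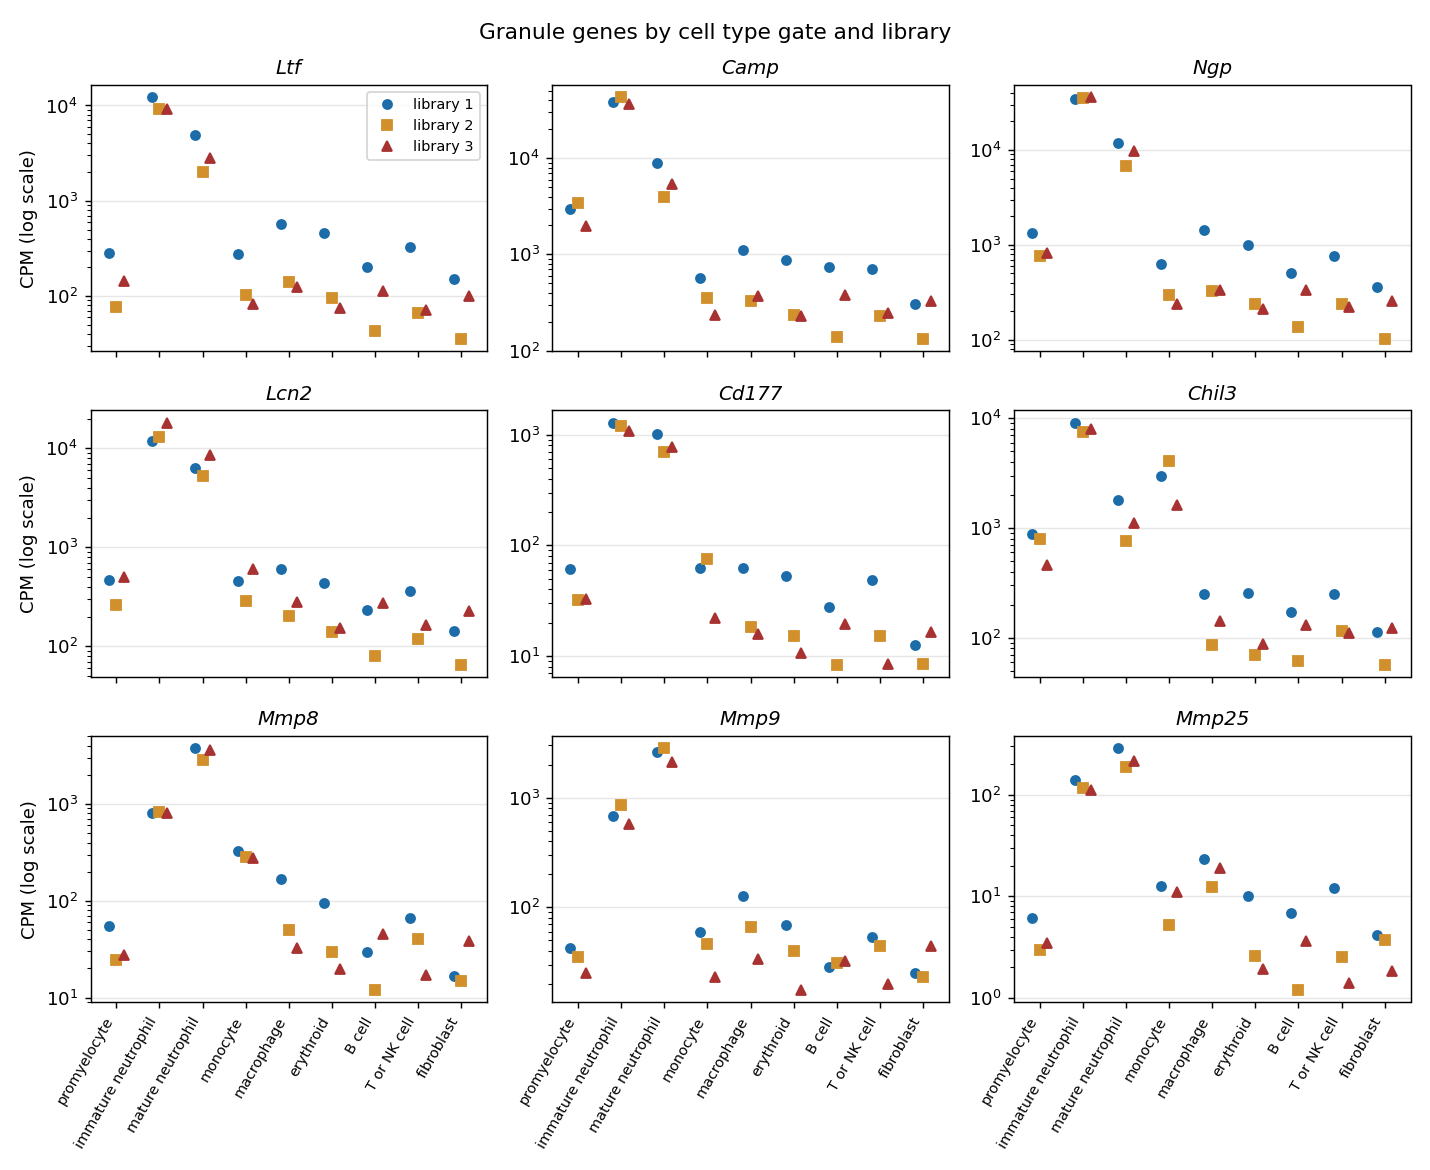
CPM of each granule gene (log scale) in the 9 gates with at least 50 cells in each library, with 1 point per library. The 6 secondary genes were highest in immature neutrophils and the 3 Mmp genes in mature neutrophils, in each library.

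Camp and Ngp supplied the most UMIs of the 6 secondary genes. In immature neutrophils Camp was at 38257 (38191 to 38324), 43339 (43187 to 43491) and 36615 (36502 to 36727) CPM in libraries 1, 2 and 3, and in mature neutrophils at 8959, 3966 and 5447 CPM. Ngp was at 34481, 35633 and 36188 CPM in immature and at 11988, 6718 and 9831 CPM in mature neutrophils. No mature value of either gene reached the lowest immature value. Camp was thus 4.27-fold (4.25 to 4.29), 10.9-fold (10.8 to 11.05) and 6.72-fold (6.66 to 6.79) higher in immature cells, and Ngp 2.88-fold, 5.30-fold and 3.68-fold. Chil3 was also much lower in mature cells, with 9131, 7528 and 8048 CPM in immature and 1782, 767.1 and 1118 CPM in mature neutrophils, a ratio of 5.13, 9.81 and 7.20. A near copy, Chil4, had 1.05, 0.279 and 0.0898 CPM in immature neutrophils, so few UMIs went to it.

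Ltf and Lcn2 were closer between the 2 gates than Camp was. Ltf was at 12265, 9200 and 9264 CPM in immature and at 4885, 1994 and 2846 CPM in mature neutrophils, a ratio of 2.51 (2.49 to 2.53), 4.61 (4.54 to 4.69) and 3.25 (3.21 to 3.30). Lcn2 was at 11828, 13103 and 18255 CPM in immature and at 6345, 5285 and 8622 CPM in mature neutrophils, a ratio of 1.86 (1.85 to 1.88), 2.48 (2.45 to 2.51) and 2.12 (2.10 to 2.14). Cd177 differed least of the 6, with 1288, 1195 and 1085 CPM in immature and 1019.9, 699.6 and 769.0 CPM in mature cells. Its ratio was 1.26, 1.71 and 1.41, past 1.5 in library 2 only. Among genes with at least 50 CPM in 1 of the gates and libraries, 5 of the 6 secondary genes were over 1.5-fold higher in immature neutrophils in each library, against 18.6% of 3215 genes. Their median log2 ratio was 1.43, 2.31 and 1.79, beside -0.09, -0.18 and -0.15 over all 3215 genes.

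The 3 genes grouped here as tertiary ran the other way. Mmp8 was at 805.4, 836.1 and 797.9 CPM in immature and at 3774, 2875 and 3574 CPM in mature neutrophils, which is 4.69-fold (4.62 to 4.75), 3.44-fold (3.34 to 3.54) and 4.48-fold (4.38 to 4.59) higher in mature cells. Mmp9 was at 672.8, 859.9 and 574.8 CPM in immature and at 2615, 2823 and 2094 CPM in mature neutrophils, 3.89-fold, 3.28-fold and 3.64-fold higher. The immature and mature values of both genes did not overlap. Mmp25, the least abundant member, was at 139.9, 116.6 and 111.7 CPM in immature and at 288.7, 186.4 and 216.1 CPM in mature cells, 2.06-fold (1.98 to 2.15), 1.60-fold (1.47 to 1.74) and 1.93-fold (1.80 to 2.08) higher. All 3 passed 1.5-fold in each library, against 24.7% of the 3215 genes. With the mean of per-cell CPM, or with the 9 members left out of the total, Mmp25 no longer did and the count was 2 of 3.

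The same contrast showed in the share of cells with a UMI after each cell was thinned to 1000 UMIs. A Camp UMI was seen in 99.8%, 99.3% and 99.9% of immature and in 66.6%, 41.7% and 56.7% of mature neutrophils. An Mmp8 UMI was seen in 33.9%, 35.5% and 34.3% of immature and in 90.1%, 77.2% and 85.5% of mature neutrophils. Thinning left out 10, 3 and 12 immature and 33, 48 and 19 mature cells. Without thinning the Mmp8 shares were 50.5%, 49.7% and 56.3%, and 95.9%, 87.2% and 93.4%. For comparison, T or NK cells had thinned shares of 27.3%, 20.4% and 26.7% for Camp and 2.86%, 2.98% and 2.91% for Mmp8. Their median depths were 3960, 4337 and 5946.5 UMIs before thinning.

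To order the genes, 14846 cells were used whose leading markers were those of immature or mature neutrophils, with fewer promyelocyte markers. They were lined up by the number of mature minus immature markers seen. Bins of at least 20 cells began at -7, -6 and -5 in libraries 1, 2 and 3, the most immature, and ended at 8, the most mature. This line is a rank by marker counts and not a measured time. Camp was highest near the immature end, at -6, -4 and -5 in libraries 1, 2 and 3, and Chil3 at -7, -6 and -2. Ngp was highest at -6, -6 and -5, and both Ltf and Lcn2 at -2 in each library. For Camp in library 3, Ngp in libraries 2 and 3 and Chil3 in libraries 1 and 2, the highest bin was the first bin. There it is an edge of the line, and a higher level before it could not be seen. As the first bin differed, these positions cannot be compared between libraries. Cd177 peaked at 1, 0 and 1, Mmp25 at 2 in each library, and Mmp8 and Mmp9 at 3, 2 and 2. In each library every gene grouped as secondary had its highest bin before those of the 3 Mmp genes. Cd177 was the last of the secondary group.

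**Figure D2:**
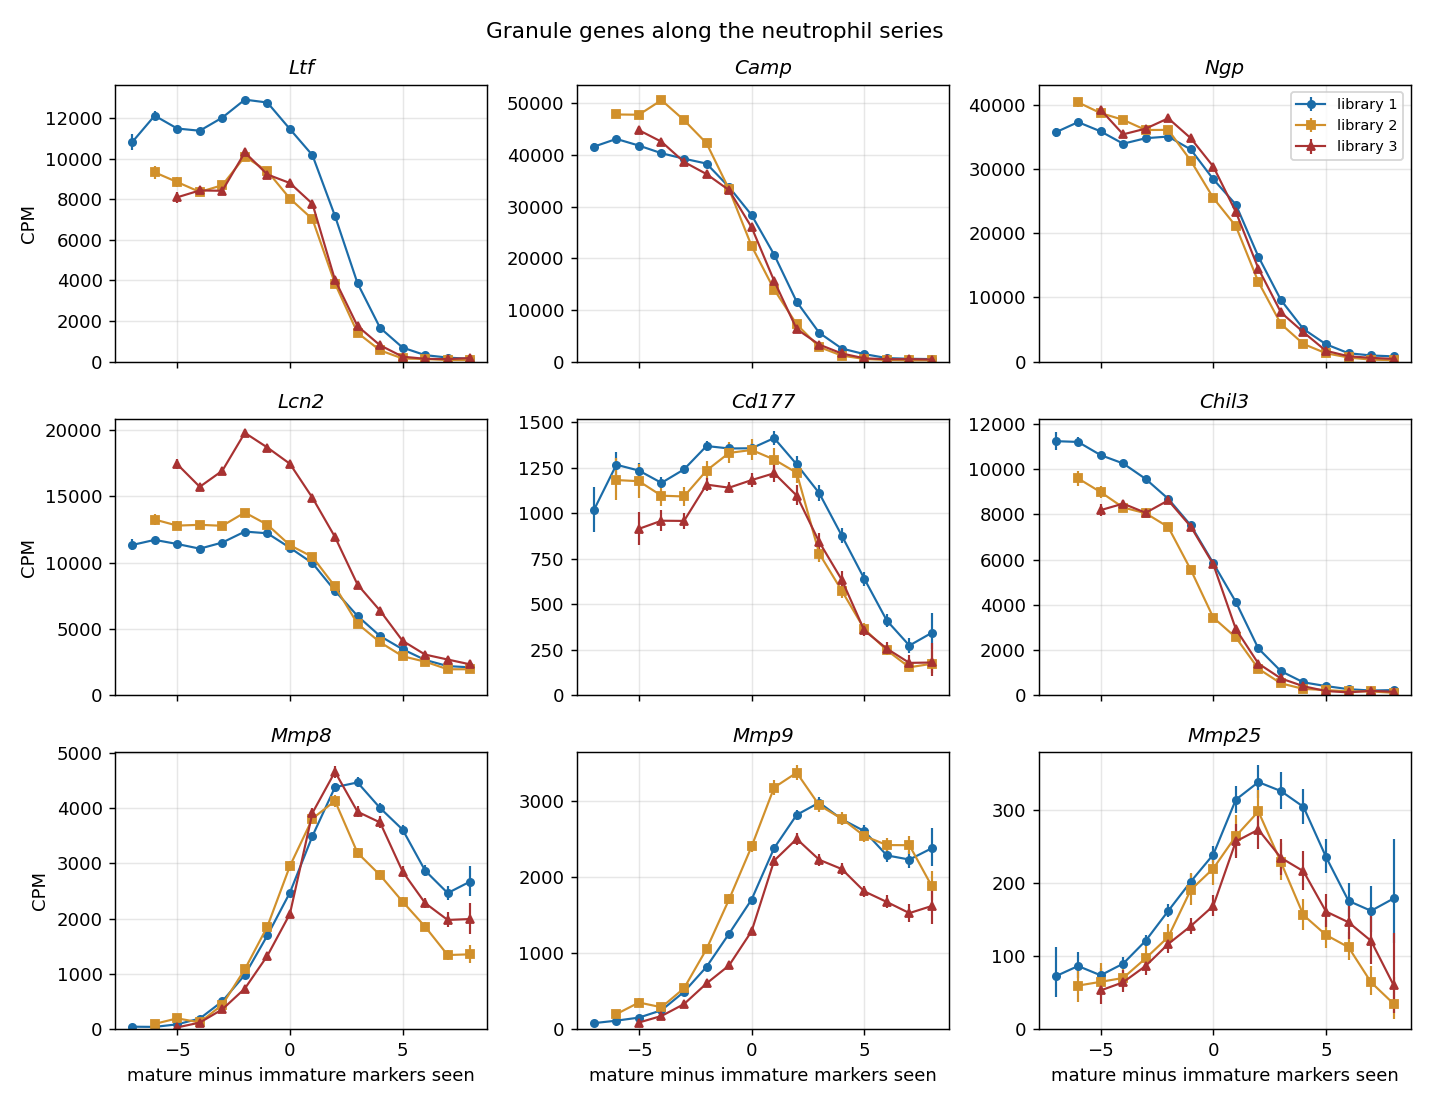
CPM of each granule gene against the number of mature minus immature markers seen in a cell, with 1 line per library and bars for 95% counting intervals, over bins of at least 20 cells. Camp, Ngp and Chil3 are highest at or to the left of -2, Ltf and Lcn2 peak at -2, and the 3 Mmp genes peak at 2 or 3.

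At the mature end the genes differed in what was left of them. From the peak to the last bin, Ltf dropped from 12902, 10100.2 and 10302 to 139.1, 79.6 and 181.1 CPM, a ratio of 92.7, 127 and 56.9. Camp dropped by a ratio of 84.5, 188 and 106. Lcn2 kept more, with 2120 (1894 to 2365), 1976 (1786 to 2180) and 2344 (2052 to 2665) CPM in the last bin and a ratio of 5.83, 6.98 and 8.45. Cd177 was like Lcn2, with a ratio of 4.10, 7.74 and 6.74. Mmp9 dropped by a ratio of only 1.25, 1.80 and 1.54, and Mmp8 by 1.67, 3.05 and 2.34. Mmp25 dropped by 1.89, 8.55 and 4.52, which in library 2 is more than Lcn2. The last bin held 63, 66 and 29 cells, and the Ltf values there rest on 21, 16 and 18 UMIs.

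In promyelocytes the granule gene UMIs were carried by a minority of cells. The median promyelocyte had 0.137%, 0.0617% and 0.109% of its UMIs from the 9 genes in libraries 1, 2 and 3, near the medians of B cells (0.125%, 0.0493% and 0.123%) and of T or NK cells (0.116%, 0.0576% and 0.0886%). The upper quartile of promyelocytes was 0.512%, 0.321% and 0.523%, and the highest cell 14.5%, 10.2% and 19.5%. Camp gave 48.8%, 63.0% and 49.2% of these UMIs. Summed over the gate, Camp was at 2977 (2951 to 3003), 3408 (3363 to 3453) and 1964 (1943 to 1986) CPM, which is 6.91%, 6.73% and 4.39% of its peak. Chil3 was at 878.8, 791.5 and 464.6 CPM, and Ngp at 1338, 771.7 and 820.1 CPM. Ltf was at 282.4, 76.5 and 145.5 CPM, or 2.19%, 0.758% and 1.41% of its peak. The summed B cell and T or NK cell gates, called lymphoid cells here, had 721.3, 175.5 and 310.5 CPM of Camp and 262.0, 53.0 and 92.1 CPM of Ltf. On these sums, which the cells of high content weigh on, 5 of 7 genes with enough UMIs in promyelocytes (Camp, Ngp, Lcn2, Cd177 and Chil3) were over 1.5-fold above lymphoid cells in each library, against 10.2% of 4254 genes. In immature and in mature neutrophils 9 of 9 members were, against 13.6% of 4219 and 21.2% of 4442 genes.

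Immature neutrophils with cell cycle genes had more Camp and less Ltf and Mmp8 than those without. The cell cycle list held Mki67, Top2a, Birc5, Cdc20, Ube2c, Cenpf, Tpx2 and Ccnb1. Of its 8 genes, 8 were over 1.5-fold higher in immature than mature neutrophils in each library, against 18.6% of 3215 genes. Cells with at least 3 of these genes seen made up 54.0%, 49.9% and 58.1% of the immature gate. Compared with cells in which none was seen, they had less Ltf (10434 against 18089, 7823 against 11533 and 8109 against 12438 CPM in libraries 1, 2 and 3). They had much less Mmp8, at 393.5 against 2208, 243.6 against 2218 and 258.0 against 3109 CPM. Camp went the other way, at 39533 against 33133, 50979 against 25975 and 38917 against 24690 CPM, and so did Chil3. Cells with at least 3 cycle genes were also deeper, with medians of 9663, 13063 and 18761 UMIs against 3993, 6501 and 6904, and the part of depth in these differences was not tested.

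Other granule genes did not follow one pattern. Of 14 other secondary and tertiary granule and vesicle genes, 13 had at least 50 CPM. Between the neutrophil gates, 3 of the 13 were over 1.5-fold higher in immature cells (Orm1, Cybb and Cd63), against 18.6% of 3215 genes. Another 3 were higher in mature cells (Adam8, Slc11a1 and Mcemp1), against 24.7% of these genes, and 7 were in neither group. Both counts are near the share over all genes. The choice of which of them to name was made after their values were seen. Cybb, the large subunit of the phagocyte oxidase, was at 2347, 1957 and 1937 CPM in immature and at 1096, 642.7 and 759.0 CPM in mature neutrophils. Lyz2 (lysozyme), Pglyrp1 (a peptidoglycan recognition protein) and Hp (haptoglobin) stood in neither group, with Pglyrp1 at 2761, 2759 and 3447 and at 2919, 2477 and 3164 CPM. Of 6 primary granule genes 5 were abundant enough, and 3 of these were higher in immature cells, against 18.6% of 3215 genes. But 5 of the 6 were gate markers, so their levels were partly fixed by the gates.

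Most regulators of the granule genes were abundant enough to compare, while most receptors, partners and inhibitors were not. Of 8 regulators, 6 had at least 50 CPM. Cebpe was higher in immature cells but is a gate marker, while Cebpb was at 196.3, 205.4 and 244.9 CPM in immature and at 832.5, 1116 and 877.6 CPM in mature neutrophils. Spi1 (PU.1) was also over 1.5-fold higher in mature cells, and 3 others were in neither group. Thus 1 of 6 was higher in immature cells, against 18.6% of 3215 genes, and 2 of 6 in mature cells, against 24.7%. Of 9 receptors, partners and inhibitors, 2 had at least 50 CPM, and both were higher in mature cells, where 24.7% of 3215 genes were. Fpr2, a receptor for cathelicidin peptides, was at 273.0, 238.4 and 226.6 CPM in immature and at 535.7, 442.5 and 415.3 CPM in mature neutrophils. Timp2, an inhibitor of metalloproteinases, was at 52.5, 56.6 and 48.6 and at 288.0, 274.8 and 297.2 CPM. The lipocalin-2 receptor candidates Slc22a17 and Lrp2 stayed at or below 2.03 CPM in both gates.

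Between libraries, the granule genes of the immature neutrophil gate were close. The ratio of the highest to the lowest library was 1.05 to 1.54, and 1 of 9 members (Lcn2) passed 1.5-fold, against 43.3% of 2667 genes. With the mean of per-cell CPM Lcn2 no longer passed, and the count was 0. Mmp9 came just under it, at a ratio of 1.496 (1.44 to 1.55), highest in library 2 and lowest in library 3. In the mature gate 6 of 9 (Ltf, Camp, Ngp, Lcn2, Chil3 and Mmp25) passed 1.5-fold, against 38.4% of 2686 genes. Of these, Mmp25 no longer passed with hemoglobin, S100a8 and S100a9 left out of the total or with cells thinned to 2000 UMIs before gating. Except for Lcn2, these 6 were highest in library 1 and lowest in library 2. In promyelocytes 7 of 7 testable members passed it (45% of 3330 genes), in monocytes 7 of 8 (31.9% of 3607 genes) and in macrophages 8 of 8 (35.3% of 3809 genes). The same held for 5 of 5 in B cells (41.8% of 3804 genes), 7 of 7 in T or NK cells (48.2% of 3705), 8 of 8 in erythroid cells (37.2% of 2943) and 5 of 5 in fibroblasts (40.9% of 4253). Each library is 1 pool of animals, so a difference between groups and one between pools or library preparations cannot be told apart.

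Windows of the marker line hold cells of a like difference between mature and immature markers, but the numbers of markers seen were not matched. Within 5 such windows, Lcn2 was highest in library 3 in 5 of 5. In the window from -3 to -2 it was at 11971 (11916 to 12025), 13332 (13211 to 13454) and 18702 (18583 to 18822) CPM in libraries 1, 2 and 3. In the window from -1 to 1 it was at 11388, 11604 and 17498.5 CPM, and in the most mature window (5 or more) at 2944, 2573 and 3475 CPM. Cells of library 3 were deeper, with medians of 14043 UMIs in the first of these windows against 7240 and 9157. When all cells were thinned to 2000 UMIs before they were gated, Lcn2 was again highest in library 3 in 5 of 5 windows, at 12629, 14306 and 18974 CPM from -3 to -2. Ltf was highest in library 1 in each of the 5 windows, at 12492, 9455 and 9580 CPM from -3 to -2, and Mmp9 was lowest in library 3 in each, at 667, 818 and 498.

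**Figure D3:**
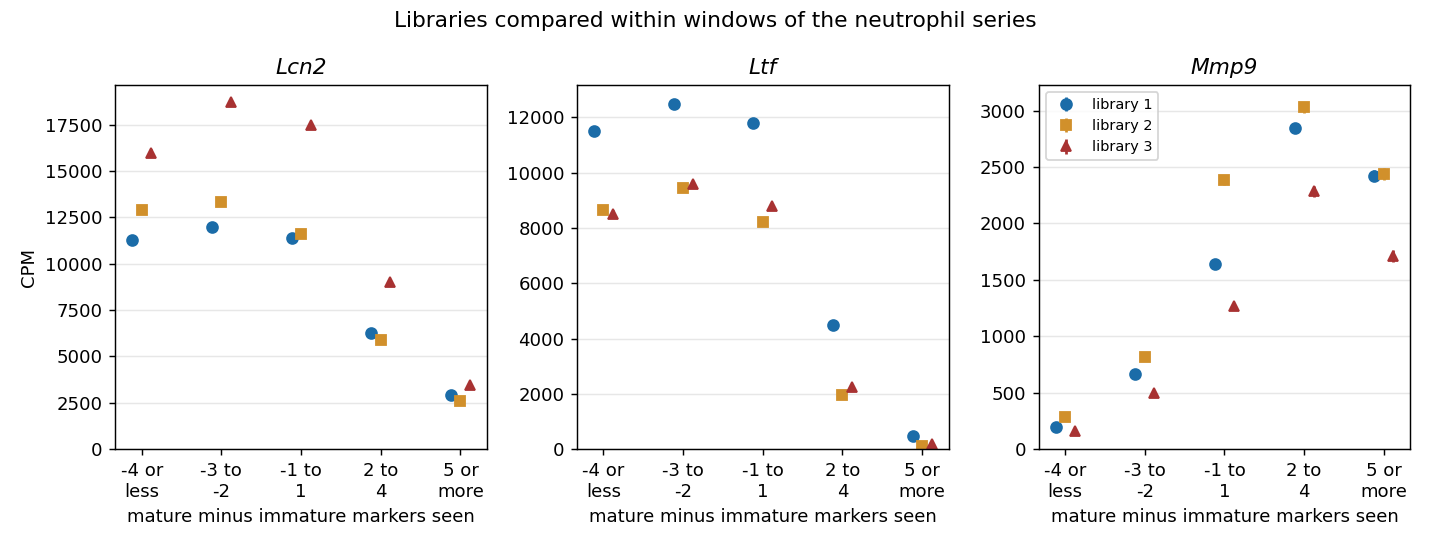
CPM of Lcn2, Ltf and Mmp9 within 5 windows of the number of mature minus immature markers seen, with 1 point per library and 95% counting intervals smaller than most points. Library 3 is highest for Lcn2 and lowest for Mmp9 in each window, and library 1 is highest for Ltf.

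Granule gene UMIs were also found in cells of every other gate. In lymphoid cells the 9 genes made up 2248, 658.5 and 1091 CPM. Ngp made up 26.2%, 26.5% and 25.2% of the 9 genes' UMIs in B cells and 31.7%, 31.9% and 32.6% in immature neutrophils. Lcn2 made up 12.1%, 15.7% and 20.6% in B cells, with library 3 highest as in neutrophils. In CPM, library 1 was highest for each of the 9 genes in macrophages, in T or NK cells and in erythroid cells. Ltf was at 575.4, 140.3 and 126.0 CPM in macrophages, 331.5, 66.4 and 72.0 in T or NK cells and 458.5, 95.8 and 75.1 in erythroid cells. Lcn2 was at 608.7, 203.6 and 277.2 CPM in macrophages, 364.5, 118.6 and 165.1 in T or NK cells and 437.3, 139.4 and 154.8 in erythroid cells. CPM is a relative measure, and S100a8 alone made up 101990, 143852 and 135442 CPM of immature neutrophils. Library 1 also had the largest share of its UMIs in the 9 genes, at 4.30% against 1.59% and 1.57%. Macrophages and erythroid cells had 0 of 8 and fibroblasts 0 of 5 testable members over 1.5-fold above lymphoid cells in each library, where 23.9%, 15.8% and 31% of all genes were.

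In the monocyte gate Chil3 stood out. It was at 2985 (2961 to 3010), 4066 (4029 to 4105) and 1618 (1600 to 1637) CPM in 2454, 1105 and 1177 cells, against 208.4, 83.1 and 119.2 CPM in lymphoid cells. That is 14.3-fold (13.2 to 15.6), 49.0-fold (43.1 to 55.8) and 13.6-fold (12.2 to 15.2) higher, and in library 1 this ratio ranged from 6.80 to 27.1 under the other settings tried. After thinning to 1000 UMIs a Chil3 UMI was seen in 71.1%, 71.3% and 57.3% of monocytes, against 16.3%, 10.6% and 8.14% of T or NK cells. Chil3 gave 55.3%, 73.8% and 51.9% of the granule gene UMIs of monocytes and 8.39%, 6.73% and 7.25% of those of immature neutrophils. Among monocytes, library 2 had the highest Chil3 CPM and library 3 the lowest, a ratio of 2.51.

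Mmp8 was the other member above lymphoid cells in monocytes under each setting tried. It was at 329.1, 284.6 and 278.5 CPM, against 47.0, 23.7 and 31.1 CPM, which is 7.01-fold (5.87 to 8.43), 11.99-fold (9.43 to 15.5) and 8.97-fold (7.26 to 11.2) higher. Lcn2 was at 461.6, 287.6 and 610.4 CPM, 1.56-fold, 2.99-fold and 2.79-fold above lymphoid cells, and Cd177 at 62.9, 74.7 and 22.0 CPM. With Lcn2 and Cd177, 4 of 8 members passed 1.5-fold in each library, against 18.2% of 4418 genes. These last 2 no longer passed with called doublets left out, with a marker lead of 1, or with cells thinned to 2000 UMIs before gating, and 2 of 8 were left. Without called doublets monocyte Lcn2 was at 349.3, 236.4 and 581.7 CPM. With cells thinned before gating it was at 761.7, 386.8 and 776.2 CPM, so that library 3 no longer stood clear of library 1. Camp, Ngp and Ltf did not pass in each library: in library 3, Camp was at 235.1 CPM in monocytes against 310.5 in lymphoid cells. In library 2, Camp and Ltf were at 347.9 and 101.9 CPM in monocytes, above the lymphoid values given earlier.

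Relative to Ngp, which was near its lymphoid level in monocytes of libraries 1 and 3, monocytes carried more Lcn2 than lymphoid cells did. There were 0.726 (0.706 to 0.746), 0.968 (0.921 to 1.02) and 2.54 (2.45 to 2.63) Lcn2 UMIs per Ngp UMI in monocytes. B cells had 0.464 (0.406 to 0.528), 0.592 (0.475 to 0.736) and 0.817 (0.711 to 0.938), and T or NK cells 0.476, 0.504 and 0.752. For Chil3 the ratio was 4.70, 13.7 and 6.74 in monocytes, against 0.337, 0.447 and 0.386 in B cells. Ltf per Ngp UMI was alike in monocytes (0.437, 0.343 and 0.342) and B cells (0.398, 0.320 and 0.336). Monocytes of library 3 were deeper, at a median of 14143 UMIs against 6728.5 and 8191, and had more promyelocyte markers seen, a median of 4 against 2 and 2.

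**Figure D4:**
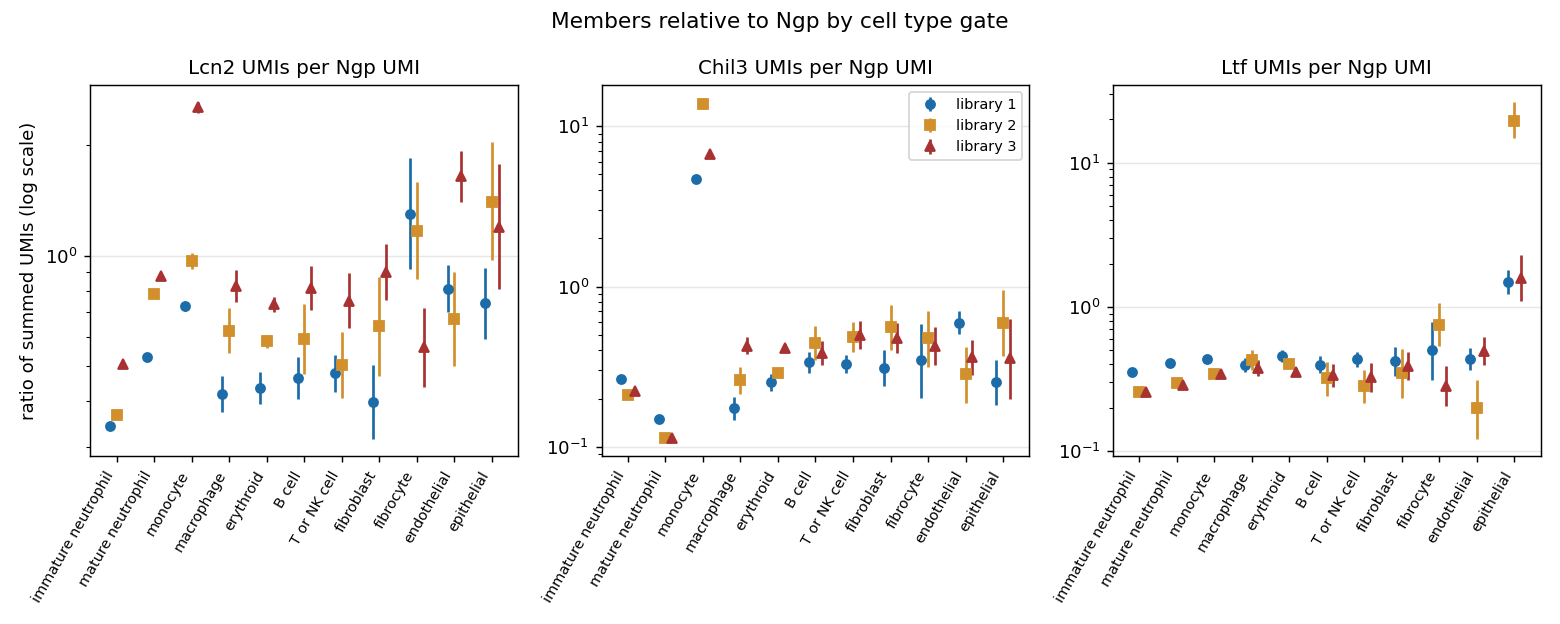
UMIs of Lcn2, Chil3 and Ltf per UMI of Ngp (log scales) by gate, with 1 point per library and 95% counting intervals. Monocytes stand apart for Chil3 in each library and for Lcn2 in library 3, and epithelial cells for Ltf.

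Single cells were counted in which 1 member had at least 10 UMIs and more than Camp and Ngp together. Chil3 met this in 60.9% (59.0 to 62.9), 65.1% (62.2 to 67.9) and 54.6% (51.7 to 57.5) of monocytes. The monocyte with the most held 264 Chil3 UMIs beside 3 of Camp and 1 of Ngp. Lcn2 met it in 4.24% (3.48 to 5.11), 4.16% (3.06 to 5.51) and 23.1% (20.7 to 25.6) of monocytes and Mmp8 in 2.49%, 3.80% and 10.96%. In mature neutrophils, where Camp and Ngp had declined, Lcn2 met it in 18.5%, 28.5% and 40.7%, Mmp8 in 21.5%, 20.6% and 30.5% and Mmp9 in 10.0%, 21.1% and 12.7%. In B cells, by comparison, 2 of 864 met it for Lcn2. Monocytes and mature neutrophils of library 3 had the highest median depths, and the part of depth in these shares was not tested.

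Outside blood cells few cells met this count. Ltf did in 7 of 94 cells of the epithelial gate (Epcam, Krt8, Krt18, Cdh1 and others), 7.45% (3.05 to 14.7), with 3, 3 and 1 cells in libraries 1, 2 and 3. The cell with the most held 629 Ltf UMIs of 76071, beside 4 of Camp and 5 of Ngp, with 8 epithelial and 5 promyelocyte markers seen, and the next 351 of 16611, beside 3 and 3. Epithelial Ltf was thus at 555.1 (492.7 to 623.2), 2010.2 (1889 to 2137) and 241.5 (191.2 to 301.0) CPM over 44, 33 and 17 cells, and the library 2 value rests on few cells. None of the 7 was called a doublet. Lcn2 met the count in 6 of 203 endothelial cells (4, 0 and 2), of which 1 held 163 Lcn2 UMIs beside 0 of Camp and 1 of Ngp. Mmp9 met it in all 3 cells of the osteoclast gate (Acp5, Ctsk and others), with 222, 64 and 53 UMIs, and the cell with 64 was called a doublet. Mmp9 is a known osteoclast gene.

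Genes whose pattern over the 9 gates and 3 libraries was most like that of the summed secondary genes included S100a8 (Pearson r = 0.963), Wfdc21 (0.961), S100a9 (0.954) and 4930438A08Rik (0.949). For the summed tertiary genes they were Rasgrp4 (0.965), A530064D06Rik (0.959), Ifitm6 (0.959), Bmx (0.958) and Ceacam10 (0.955). The correlations describe log2(CPM + 1) over 27 points among 7207 genes. The points of a library share its preparation and depth, so no p is given. S100a8 and S100a9, the calprotectin subunits, were in neither the immature nor the mature group. Of the 6 secondary genes, 5 were in the immature group and 1 (Cd177) was in neither.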

How the data were processed

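The table holds raw UMI counts per gene and barcode, made by the authors with Cell Ranger 7.1.0, per the file headers, on GRCm39, per the submitters' processing notes. For cell calling, settings were not given in the sources used here. Barcode suffixes separated the 3 libraries, and barcodes with at least 500 UMIs, at least 200 genes and at most 20% mitochondrial UMIs were kept, at median depths of 5464 to 8098 UMIs. Counts were summed over the cells of each gate and given as CPM, not divided by gene length because 3′ ends were counted. Gates used 8 markers each. Intervals are exact Poisson, Clopper-Pearson or conditional binomial at 95% and cover counting error only. A gene was compared between gates if it had at least 50 CPM in 1 of them, and called past 1.5-fold in each library. The scripts were tested on simulated data. Doublets were called per library with scrublet (scanpy 1.11.5, expected rate 6%) and kept in the reported values. Scripts ran in Python 3.11.15 with pandas 2.3.3, scipy 1.17.1, numpy 2.4.6 and matplotlib 3.10.9.

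The text names the 9 members, genes of the lists (the rule was at most 5 of each, those of highest CPM in neutrophils; the lists of other granule genes and of cell cycle genes go beyond it, and some genes of lower CPM were named after their values were seen), and the 5 genes most correlated with each kind of member, of which 1 is not reported here. The members and lists were chosen with earlier results of these data known. Alternatives were other marker numbers and leads, other cell filters, doublets left out, other denominators, the mean of per-cell CPM and cells thinned to 2000 UMIs before gating.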

Additional observations from a re-analysis of the deposited data

How the results depend on the processing

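Of 11 other settings, 10 were planned and 1 (cells thinned to 2000 UMIs before gating) was chosen after seeing the data. The count of members over 1.5-fold higher in monocytes than in lymphoid cells was 4, and became 2 with a marker lead of 1, 2 with called doublets left out and 2 with cells thinned to 2000 UMIs before gating. The count of members past 1.5-fold between libraries in immature neutrophils was 1, and became 0 with the mean of per-cell CPM, 2 with hemoglobin, S100a8 and S100a9 left out of the denominator and 2 with cells thinned to 2000 UMIs before gating. The causes were not tested. The other counts stayed within 1.5 times: 5 to 6 secondary members higher in immature neutrophils, 2 to 3 tertiary members higher in mature ones, 5 to 8 members past 1.5-fold between libraries in mature neutrophils, and Lcn2 highest in library 3 in 5 of 5 windows. Of 396 values of single ratios under these settings, 185 moved beyond their counting interval and 0 changed direction. The immature over mature ratio of Camp in library 2 ranged from 6.88 to 16.6. No paired analysis was possible because each group is 1 library. Genes with few UMIs, Mmp25 above all, and the 12 gates with under 50 cells in a library give the least precise values.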

Other observations

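Mmp9 was abundant in the few cells with osteoclast markers. With fewer markers required, a rule chosen after seeing the data, 8 cells entered that gate, of which 6 had at least 10 Mmp9 UMIs and more than of Camp and Ngp together, at 2275 (2102 to 2457) CPM over the 8. Of these cells 2 were called doublets. Chil3 met the same count in 1 of 203 endothelial cells, which held 117 Chil3 and 74 Lcn2 UMIs of 33169.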
